A study of Mus musculus with 31 samples.

Results

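The R-spondin module of Wnt signalling was followed through both expression tables of the series. Its members are the ligands Rspo1, Rspo2 and Rspo3, the receptors Lgr4 and Lgr5, and the ligases Rnf43 and Znrf3. The 7 genes were chosen by name as a pathway module, out of 55754 gene identifiers in all, with earlier results of these data known. Each of them was found by its Ensembl identifier in both tables. In dorsal against ventral diencephalon, Rspo1 (8.95-fold), Rspo2 (20.1-fold) and Rspo3 (20.6-fold) were higher in dorsal libraries, and Lgr4 (3.46-fold) was higher in ventral libraries. The Rspo3 and Lgr4 calls held with any 1 library left out, whereas Rspo1 and Rspo2, both low, each lost theirs in 4 of 6 such fits, and the Rspo2 ratio rests on 12 ventral counts. In the medial cortex, 6 of the 7 genes had a mean of at least 1 TPM (transcripts per 1000000). None of these 6 differed between libraries labelled Axin2 null and Axin2 wild type by 1 or more in mean log2(TPM + 1), where 1.39% of all such genes were higher in null by that much and 8.14% lower. Rspo2 came closest to that size, at -0.98.

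R-spondins are secreted proteins that amplify Wnt signalling. Rnf43 and Znrf3 are membrane E3 ubiquitin ligases that mark Frizzled receptors for removal from the cell surface, and an R-spondin that binds an Lgr receptor together with such a ligase clears the ligase from the membrane, which leaves more Frizzled to receive Wnt. Rnf43, Znrf3 and Lgr5 are also known as Wnt target genes in other tissues, so the ligases act in a negative feedback loop, as does Axin2, a scaffold of the complex that destroys beta-catenin. In the forebrain, the dorsal midline with its roof plate and cortical hem is known as a source of Wnt ligands.

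The study concerns Axin2 in competition between stem cells of the mouse embryonic brain. Dorsal and ventral diencephalon were collected from wild-type embryos at E10.5 (E, embryonic day), and 3 bulk RNA-seq libraries were made from each region. At E11.5, cells were dissociated from the medial cortex of mice that carried Emx1-CreERT2 (1 copy of the Cre, per the labels), the MADM-11 cassettes and the Axin2LacZ allele, and 13 Smart-seq2 libraries labelled Axin2(-/-) and 12 labelled Axin2(+/+) were made. MADM, mosaic analysis with double markers, exchanges arms between homologous chromosomes after Cre recombination and so gives sister cells of different genotype and colour. Both cortical groups therefore carry the same Cre driver and cassettes. The Emx1 driver restricts Cre to the cortical lineage, and which embryos or how many embryos gave the cells is not stated. The labels call the samples cells and neural progenitors. The labels do not tie the 3 libraries of a region to separate embryos, so p-values here measure the spread between libraries, which may be technical.

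Bulk library totals ran from 17604411 to 20838226 estimated counts. Expression is given in CPM (counts per 1000000 counts, TMM-scaled), and 1 count was worth 0.047 to 0.0566 CPM. Within a region, libraries 1 and 2 were the closest pair (correlation 0.9948 in dorsal and 0.9871 in ventral), and ventral library 3 stood farthest from its group (0.9254 and 0.9141). The labelled regions carried their markers: summed over 6 thalamic and pretectal genes, dorsal libraries held 1356 to 1614 CPM and ventral libraries 84.7 to 86.9 CPM, and summed over 7 hypothalamic genes they held 52.6 to 65.7 CPM and 609 to 984 CPM. Tcf7l2 made up most of the dorsal thalamic and pretectal sum, at a mean of 1105 CPM. Marker genes of other tissues also divided the regions. All 7 genes of a telencephalic pallium list were higher in dorsal libraries (1404 to 1482 CPM against 38.1 to 50.8 CPM), and all 9 genes of an intestinal epithelium list and all 6 of an exocrine pancreas list were higher in ventral libraries (1915 to 7177 CPM and 457 to 1961 CPM against at most 9.29 CPM and 2.32 CPM).

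Of the 7 genes, 3 were matched in the RefSeq promoter table, namely Rspo1, Lgr4 and Rnf43. Shown here are the 250 bases before the start (RefSeq, GRCm38.p6) of Rspo1 and Lgr4, because these genes differed between the regions in opposite directions. The Rspo1 window lies at chr4:124986180-124986429 on the plus strand, and the Lgr4 window at chr2:109917397-109917646 on the plus strand. Capitals mark CCAAT, the box known to be bound by the factor NF-Y.
Rspo1: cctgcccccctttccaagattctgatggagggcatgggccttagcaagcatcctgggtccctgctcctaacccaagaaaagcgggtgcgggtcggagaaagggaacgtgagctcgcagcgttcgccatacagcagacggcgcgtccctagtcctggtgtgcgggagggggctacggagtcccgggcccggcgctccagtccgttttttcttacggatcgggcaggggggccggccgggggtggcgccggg
Lgr4: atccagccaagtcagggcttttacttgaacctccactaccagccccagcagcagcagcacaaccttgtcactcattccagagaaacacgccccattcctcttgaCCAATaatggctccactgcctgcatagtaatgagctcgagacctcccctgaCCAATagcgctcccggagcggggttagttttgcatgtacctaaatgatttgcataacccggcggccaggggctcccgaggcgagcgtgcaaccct
The Lgr4 window held 2 matches to CCAAT, which lay 146 and 95 bases before the start, and the Rspo1 window held none. Either strand was searched (CCAAT or ATTGG), and 33.8% of 32851 mouse promoter windows of this length held the motif. Neither window held CTTTGA or its reverse complement TCAAAG, letters recognised by the TCF and LEF factors of Wnt signalling, which 13.8% of the windows held. The G and C content was 66.8% in the Rspo1 window and 55.6% in the Lgr4 window.

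The comparison of dorsal with ventral diencephalon asks how the 2 regions differ in expression at E10.5. Of the 7 genes, 6 had a mean of at least 1 CPM over the 6 libraries and were tested with the edgeR quasi-likelihood test over 14701 genes. Of these 6, 3 were higher in dorsal libraries, against 7.14% of all genes tested, and 1 was higher in ventral libraries, against 9.54% (4 of 6 in either direction, against 16.7%). The median log2 fold change of the 6 genes, dorsal over ventral, was 2.07, and that of all genes tested was 0.006. In bulk tissue, fewer cells of a type and less RNA per cell cannot be told apart.

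All 3 ligands were higher in dorsal diencephalon. Rspo3 (ENSMUSG00000019880, GRCm38 chr10:29452416-29535867, minus strand) encodes the R-spondin that was most abundant per length in both regions. Its dorsal libraries held 62.5, 59.1 and 61.4 CPM and its ventral libraries 1.73, 3.08 and 4.06 CPM. The groups did not overlap, and the 3 dorsal libraries lay close together, while the ventral libraries were uniformly low. The means were 61.0 ± 1.76 and 2.96 ± 1.17 CPM (SD, n = 3 each), a 20.6-fold difference, with a log2 fold change of 4.37 (SE 0.33, 95% interval 3.60 to 5.14, edgeR adjusted p = 0.000159). Leaving out any of the 6 libraries kept the Rspo3 call. Of the Rspo3 exon bases, 404 (13.1%) are shared with the antisense gene Gm48159. Whether counting used strand is not given in the sources used here, and Gm48159 was not analysed in the bulk libraries.

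Rspo2 (ENSMUSG00000051920, chr15:43020794-43170826, minus strand), a ligand known for its part in limb and lung development, was low in both regions. Dorsal libraries held 5.17, 4.56 and 3.12 CPM, and ventral libraries held 0.0986, 0.541 and 0 CPM. The dorsal libraries were all higher, and ventral library 3 had no Rspo2 count, where 3 counts would be 0.167 CPM. The means were 4.28 ± 1.05 and 0.213 ± 0.288 CPM (SD, n = 3 each), which rest on 260 dorsal and 12 ventral counts. The log2 fold change was 4.29 (SE 1.09, 95% interval 1.78 to 6.80, edgeR adjusted p = 0.0316). This call was lost without dorsal library 1 (adjusted p = 0.109), dorsal library 2 (0.0954), dorsal library 3 (0.0526) or ventral library 1 (0.120), and without ventral library 2 the log2 fold change was 6.21.

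Rspo1 (ENSMUSG00000028871, chr4:124986430-125009099, plus strand), the ligand known for its part in ovary development, was also low. Dorsal libraries held 3.10, 3.75 and 2.10 CPM, and ventral libraries held 0.395, 0.270 and 0.334 CPM. The groups were apart, with dorsal library 3 the lowest of its group, as it was for Rspo2. The means were 2.98 ± 0.832 and 0.333 ± 0.0621 CPM (SD, n = 3 each), an 8.95-fold difference, with a log2 fold change of 3.14 (SE 0.64, 95% interval 1.66 to 4.61, edgeR adjusted p = 0.0131). The Rspo1 call was lost without dorsal library 1 (adjusted p = 0.0690), dorsal library 2 (0.0780), ventral library 1 (0.0559) or ventral library 2 (0.0607). Rspo4, the remaining ligand of the family, had 2 counts over the dorsal and 1 over the ventral libraries and was not tested.

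**Figure D1:**
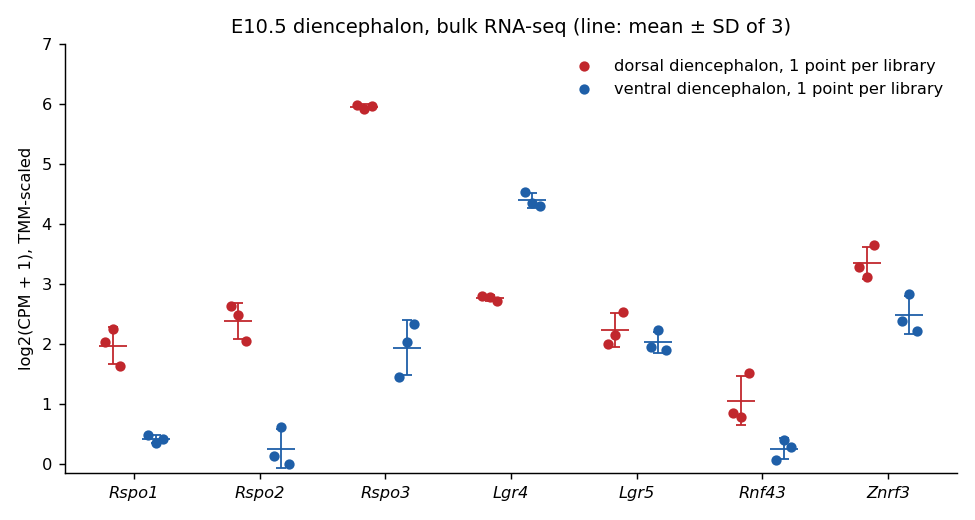
Expression of the 7 genes in E10.5 diencephalon as log2(CPM + 1), with 1 point per library and the mean ± SD of 3 dorsal (red) or 3 ventral (blue) libraries. The ligands Rspo1, Rspo2 and Rspo3 sit higher in every dorsal library, Lgr4 sits higher in every ventral library, and the points of Lgr5 overlap.

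The markers of the dorsal midline were described beside the ligands, since roof plate and hem cells are known Wnt and R-spondin sources. The 5 genes of a cortical hem list summed to 26.3 to 33.9 CPM in dorsal and 2.28 to 12.9 CPM in ventral libraries. Of the 3 tested, 2 were higher in dorsal (Wnt5a and Lmx1a, the latter also on the roof plate list below). The third, Wnt8b, was not called (log2 fold change 0.14, edgeR adjusted p = 0.953). It was at 3.01, 3.27 and 2.27 CPM in dorsal and at 4.34, 3.41 and 0 CPM in ventral libraries. The 6 genes of a roof plate list summed to 51.2 to 123 CPM and 10.9 to 22.7 CPM, and 3 of the 4 tested were higher in dorsal (Lmx1a, Zic1 and Zic2). Zic1 made up most of the dorsal sum, at a mean of 67.1 CPM. The fourth tested, Msx1, had means of 5.11 ± 1.36 (ventral) and 2.73 ± 1.49 CPM (dorsal; SD, n = 3 each, edgeR adjusted p = 0.309), and the untested Gdf7 (0.361 and 0.223 CPM) and Msx2 (0.384 and 0.352 CPM), in the same order of regions, were not higher in dorsal on average. Leaving out 1 library gave 0 to 2 hem genes and 1 to 3 roof plate genes higher in dorsal. The hem gene Wnt3a was at 0 in the ventral libraries and held 61 counts over the dorsal ones. The part of these cells, and of the pallial tissue noted above, in the ligand differences was not tested.

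Of the 2 receptors, Lgr4 was higher in ventral libraries and Lgr5 was not called. Lgr4 (ENSMUSG00000050199, chr2:109917647-110014257, plus strand) is the broadly expressed receptor of the family. Dorsal libraries held 5.97, 5.91 and 5.55 CPM, and ventral libraries held 22.2, 19.4 and 18.7 CPM. Every ventral library was higher than every dorsal one, and the spread within each region was small. The means were 5.81 ± 0.224 and 20.1 ± 1.85 CPM (SD, n = 3 each), 3.46-fold higher in ventral, with a log2 fold change, dorsal over ventral, of -1.79 (SE 0.26, 95% interval -2.39 to -1.19, edgeR adjusted p = 0.00302). Its adjusted p reached at most 0.0231 when any 1 library was left out.

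Lgr5 (ENSMUSG00000020140, chr10:115450311-115587780, minus strand) is the receptor known as a marker of intestinal stem cells. It was at 3.01, 3.46 and 4.82 CPM in dorsal libraries and at 2.86, 3.68 and 2.73 CPM in ventral libraries. The groups overlapped, and dorsal library 3 was the highest. The means were 3.76 ± 0.941 and 3.09 ± 0.515 CPM (SD, n = 3 each), and the log2 fold change was 0.28 (SE 0.47, edgeR adjusted p = 0.731). The 95% interval of that difference ran from -0.80 to 1.36. Lgr6, the remaining receptor of the family, was at 1.14 ± 0.186 and 1.24 ± 0.292 CPM (SD, n = 3 each), with an edgeR adjusted p of 0.915.

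The ventral libraries also held transcripts of intestinal tissue, where Lgr4, Lgr5, Rnf43 and Znrf3 are known to be expressed. A list of 5 intestinal stem and crypt genes summed to 0.227 to 1.87 CPM in dorsal and 9.01 to 48.0 CPM in ventral libraries. In that list Olfm4 was higher in ventral (24.8 ± 16.3 against 0.390 ± 0.272 CPM, SD, n = 3 each), the other 4 were too low to test, and Ascl2 and Cdx1 were at 0 in all 3 dorsal libraries. Smoc2 was alike in the regions (0.794 and 0.888 CPM), and in ventral library 3 the 4 genes other than Olfm4 were all at 0. Over ventral libraries 1, 2 and 3, Olfm4 was at 23.7, 41.6 and 9.01 CPM, while Lgr4 was at 22.2, 19.4 and 18.7 CPM. The part of this tissue in the Lgr4 difference was not tested.

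Neither ligase was called, since Znrf3 missed the threshold and Rnf43 was too low to test. Znrf3 (ENSMUSG00000041961, chr11:5276324-5444847, minus strand) was at 8.78, 7.68 and 11.499 CPM in dorsal libraries and at 4.24, 6.11 and 3.67 CPM in ventral libraries. The dorsal libraries all lay above the ventral ones, with dorsal library 3 the highest. The means were 9.32 ± 1.96 and 4.67 ± 1.28 CPM (SD, n = 3 each), a ratio of 1.99, and the log2 fold change was 0.99 (SE 0.38, 95% interval 0.11 to 1.88). The edgeR adjusted p was 0.122 from an unadjusted p of 0.0317, and it lay between 0.0697 and 0.295 over every alternative setting.

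Rnf43 (ENSMUSG00000034177, chr11:87662722-87735539, plus strand) was the lowest of the 7 genes per length in either region and fell under the minimum for the test. Dorsal libraries held 0.799, 0.720 and 1.87 CPM, and ventral libraries held 0.0493, 0.324 and 0.223 CPM, which come from 65 and 11 counts in all. The dorsal libraries lay above the ventral ones, and dorsal library 3 stood above the other two. The means were 1.13 ± 0.642 and 0.199 ± 0.139 CPM (SD, n = 3 each). When genes with low counts were kept in the fit, the log2 fold change was 2.47 (SE 1.08, edgeR adjusted p = 0.187).

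Counting library order alone, 4 of the 6 tested genes had every dorsal library above every ventral one (Rspo1, Rspo2, Rspo3 and Znrf3), against 19.0% of all genes tested, and 1 of 6 had every ventral library above (Lgr4), against 20.0%. Dorsal library 3 held the most Lgr5, Znrf3 and Rnf43 of its group and the least Rspo1 and Rspo2. Axin2 ordered the dorsal libraries as the 2 ligases did, at 12.1, 8.55 and 18.8 CPM in dorsal libraries 1, 2 and 3. This order was not shared in ventral libraries 1, 2 and 3. There Axin2 was at 2.71, 2.22 and 4.39 CPM, highest in library 3. Znrf3 (4.24, 6.11 and 3.67 CPM) and Rnf43 (0.0493, 0.324 and 0.223 CPM) were highest in ventral library 2. The hem gene Wnt3a, too low to test, was like Axin2 highest in dorsal library 3, at 0.564, 0.720 and 1.93 CPM. So was the untested hem gene Wnt2b, at 0.282, 0.480 and 0.566 CPM. The 3 tested hem genes were instead lowest in dorsal library 3. Wnt5a was at 24.0, 21.6 and 17.8 CPM, Lmx1a at 6.06, 7.20 and 3.80 CPM, and Wnt8b at 3.01, 3.27 and 2.27 CPM.

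**Figure D2:**
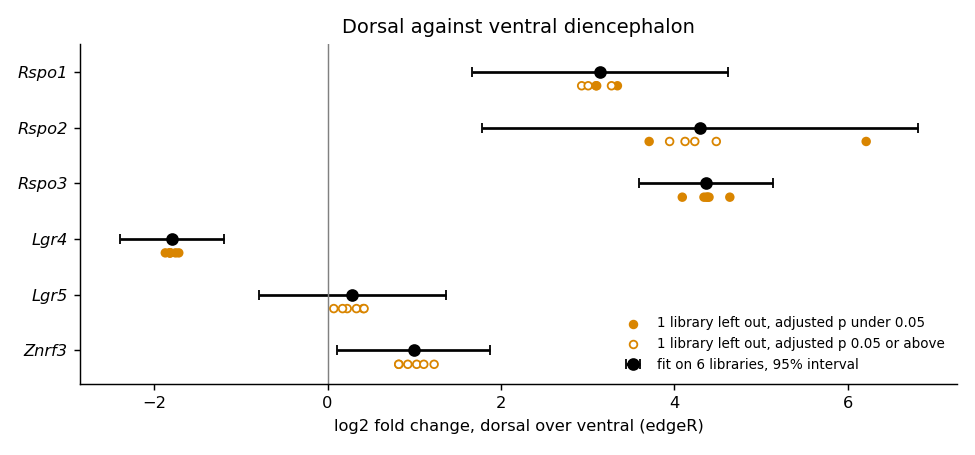
Log2 fold change, dorsal over ventral, of the 6 tested genes with its 95% interval (black), and the fold change with 1 library left out at a time (orange, filled where the edgeR adjusted p was under 0.05). Rspo3 and Lgr4 stay filled throughout, Rspo1 and Rspo2 keep their direction but lose the call in 4 of 6 cases each, and Lgr5 and Znrf3 are never filled.

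Levels can be set side by side between genes only per length, so CPM was divided by the kilobases of annotated exon (RPKM). In dorsal diencephalon Rspo3 was far above the rest at 19.7 ± 0.570 RPKM. It was followed by Rspo1 at 1.54 ± 0.429, Znrf3 at 1.18 ± 0.249, Lgr4 at 0.987 ± 0.0381 and Rspo2 at 0.838 ± 0.206 RPKM (SD, n = 3 each). Neighbours among these 4 overlapped. Lgr5 at 0.366 ± 0.0917 RPKM and Rnf43 at 0.172 ± 0.0979 RPKM stood below them, without overlap between neighbours.

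In ventral diencephalon the order changed, and Lgr4 led at 3.42 ± 0.314 RPKM. Rspo3 at 0.957 ± 0.380 and Znrf3 at 0.592 ± 0.162 RPKM came next and overlapped. Below these were Lgr5 at 0.301 ± 0.0502, Rspo1 at 0.172 ± 0.0320, Rspo2 at 0.0417 ± 0.0563 and Rnf43 at 0.0303 ± 0.0212 RPKM, of which the last pair overlapped (SD, n = 3 each). The most abundant gene of the module was thus a ligand in dorsal and a receptor in ventral libraries. With the longest transcript as the length, dorsal Rspo2 was at 1.28 and dorsal Lgr4 at 1.15 RPKM, which exchanges these neighbours.

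**Figure D3:**
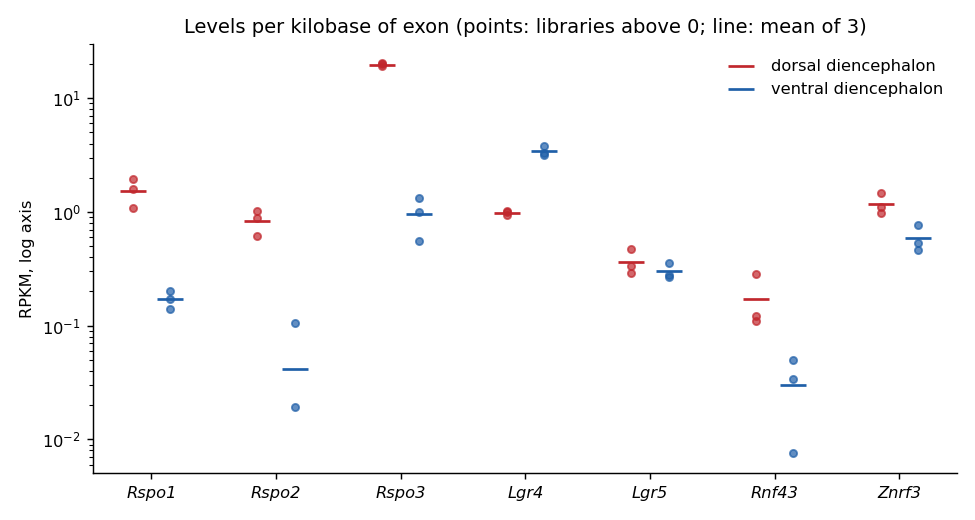
Levels per kilobase of exon (RPKM, log axis) in the 3 dorsal (red) and 3 ventral (blue) libraries, with points for libraries above 0 and a line at the mean of 3. Rspo3 leads in dorsal at 19.7 RPKM and Lgr4 in ventral at 3.42 RPKM, and Rspo2 in ventral library 3 is at 0 and has no point.

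The genes around the module were read from the same fit, in which 7.14% of all genes tested were higher in dorsal and 9.54% in ventral. Of the other genes tied to R-spondin signalling, none of the 4 tested was called (Lgr6, Dvl1, Dvl2 and Dvl3), with a median log2 fold change of 0.24. Of these, the Wnt signal transducers Dvl3 and Dvl1 were at 86.7 ± 32.3 and 70.2 ± 11.8 CPM in dorsal and at 73.9 ± 2.33 and 59.1 ± 4.10 CPM in ventral (n = 3, SD). Among the Wnt receptors, which include the Frizzled targets of the ligases, 6 of 14 were higher in dorsal and 1 in ventral, with a median of 1.09. The dorsal ones included Fzd10 (fitted log2 fold change 6.58 on 346 dorsal and 3 ventral counts, edgeR adjusted p = 0.00304), Fzd1 (2.62, 0.000859) and Fzd8 (1.56, 0.0186). Fzd5 was the receptor higher in ventral (-5.50, edgeR adjusted p = 0.00159), the direction that Lgr4 took. Leaving out 1 library gave 2 to 10 receptors higher in dorsal and 1 in ventral, and the Fzd8 call was lost without dorsal library 1 or 2 or ventral library 1 or 2 (edgeR adjusted p up to 0.0808), while Fzd10, Fzd1 and Fzd5 kept theirs.

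Of 9 Wnt ligands and secretion genes tested, 2 were higher in dorsal, Wnt7b (log2 fold change 3.24) and Wnt5a (1.92), and the median was 0.89. Among 12 genes known as Wnt feedback genes or targets, 4 were dorsal-high and none was ventral-high, with a median of 0.88. These were Tnfrsf19 (2.79), Sp8 (2.37), Nkd1 (2.21) and Axin2 (2.08, edgeR adjusted p = 0.0175). Some genes of this list that were not called ran the other way. Nkd2 (-1.16, edgeR adjusted p = 0.119), Sp5 (-1.09, 0.135) and Bambi (-0.53, 0.367) had every ventral library above every dorsal one. Lef1, Tcf7 and Ccnd1, also not called, had every dorsal library above. Among the 8 genes of beta-catenin and its destruction complex only Axin2 was called, and the median was 0.42. Of 8 secreted antagonists, Sfrp1 was higher in dorsal (2.16) and Dkk1 in ventral (-2.47), with a median of 0.66. The counts of these lists stand beside 7.14% of all genes tested higher in dorsal and 9.54% in ventral. The lists, too, were chosen with earlier results of these data known. With each library left out in turn, Wnt7b, Tnfrsf19, Nkd1 and Sfrp1 kept their calls. Axin2 was no longer called when dorsal library 1, ventral library 1 or ventral library 2 was absent (edgeR adjusted p up to 0.0765), and neither was Sp8 without dorsal library 1 (0.0578). The Wnt5a call was lost without dorsal library 1 or 2 or ventral library 1 (edgeR adjusted p up to 0.109), and the Dkk1 call without those or without ventral library 2 (up to 0.0875).

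The genes most like each member over the 6 bulk libraries, by Pearson's r of log2(CPM + 1) among genes averaging 10 CPM or more, are given as a description, since 6 libraries in 2 regions make high values common. Among the genes most like Rspo3 were Plxnd1 and Efna3 (r = 0.998 each), and 425 genes reached 0.95. Rspo1 was most like Cntn2 (0.999), Rspo2 most like Sipa1l3 (0.998) and Lgr4 most like Aig1 (0.999), with 416 to 466 genes at 0.95 or more for each. Fewer genes reached that value for the other members, with 67 for Rnf43 (led by Trabd, 0.996), 59 for Znrf3 (led by Adat1, 0.998) and 9 for Lgr5 (led by Srm, 0.975).

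The Smart-seq2 comparison asks how cells without Axin2 differ from wild-type cells of the medial cortex. Axin2 itself was at a lowest, median and highest of 0, 3.28 and 22.4 TPM in the 13 libraries labelled null and of 4.32, 13.2 and 35.9 TPM in the 12 labelled wild type. The groups overlapped, and 3 libraries labelled null exceeded the wild-type mean of 13.8 TPM. Which part of Axin2 the LacZ allele leaves transcribed is not given in the sources used here. The cells are not replicates and no animal is named, so each genotype counts as 1 sample, no test was made, and every difference is a description of these libraries. A difference is null minus wild type in mean log2(TPM + 1), and TPM keeps no depth.

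Transcripts of all 3 ligands were found in the cortex in both genotypes. Rspo3 ranged from 12.3 to 112 TPM (median 34.4) in libraries labelled null and from 9.46 to 150 TPM (median 42.8) in wild type. It was above 1 TPM in 25 of 25 libraries (exact 95% Clopper-Pearson interval from 86.3% upward, counting error only). The means were 41.8 ± 25.4 and 50.5 ± 37.0 TPM (SD over 13 and 12 libraries), and the difference was -0.15. The genotypes overlapped nearly throughout, and 20.5% of the 13680 genes whose mean reached 1 TPM had a smaller difference. Gm48159, the antisense gene that shares Rspo3 exon bases, reached 1 TPM in 2 of the 25 libraries.

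Rspo1 ranged from 0 to 84.9 TPM (median 19.7) in null and from 0.58 to 81.9 TPM (median 21.1) in wild type. Libraries of either genotype spanned almost the same range. Means were 26.7 ± 26.3 and 29.2 ± 26.6 TPM, the difference was -0.38, and 11 of 13 and 11 of 12 libraries held at least 1 TPM. Rspo2 ranged from 0 to 45.7 TPM (median 2.56) in null and from 0 to 70.4 TPM (median 13.5) in wild type. It was the most uneven ligand, at 0 in 2 null and 3 wild-type libraries. The means were 10.3 ± 15.5 and 18.5 ± 20.0 TPM, and the difference of -0.98 was larger in size than that of 89.7% of genes. With a pseudocount of 0.1 it was -1.04, past a size of 1. The median difference over all genes was -0.22. Beside the Rspo2 difference, the 5 cortical hem genes summed to a lowest, median and highest of 8.42, 32.0 and 79.3 TPM in null and 21.7, 54.3 and 101 TPM in wild type, and the median number of genes above 0 per library was 11698 and 12089.5. Their part in it was not tested.

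The receptors were low and often listed at 0. Lgr4 ranged from 0 to 4.59 TPM (median 0.38) in null and from 0 to 4.82 TPM (median 0.365) in wild type. At least 1 TPM was found in 5 of 13 null libraries (38.5%, exact interval 13.9 to 68.4%) and in 5 of 12 wild-type libraries (41.7%, 15.2 to 72.3%), and the difference was 0.16. Lgr5 was listed at 0 in 23 of 25 libraries and reached 3.79 TPM in 1 null and 2.72 TPM in 1 wild-type library. Its mean was under 1 TPM, so its share (8.0%, exact interval 1.0 to 26.0%) is given in place of a difference. Lgr6 was above 0 in 3 null and in no wild-type library, at up to 1.33 TPM, and Rspo4 was listed at 0 in all 25.

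The ligases differed in how often they were seen. Znrf3 was above 1 TPM in every library and ranged from 1.82 to 15.4 TPM (median 8.52) in null and from 3.97 to 19.9 TPM (median 8.79) in wild type. The genotypes overlapped, with means of 8.80 ± 4.56 and 9.69 ± 4.26 TPM and a difference of -0.20. Rnf43 was listed at 0 in 18 of 25 libraries and was otherwise at up to 7.95 TPM in null and 14.7 TPM in wild type. At least 1 TPM was found in 3 of 13 null (23.1%, exact interval 5.0 to 53.8%) and 4 of 12 wild-type libraries (33.3%, 9.9 to 65.1%), and the difference was -0.54. Rnf43, Znrf3 and Axin2 all lie on chromosome 11, the chromosome that carries the MADM cassettes.

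**Figure D4:**
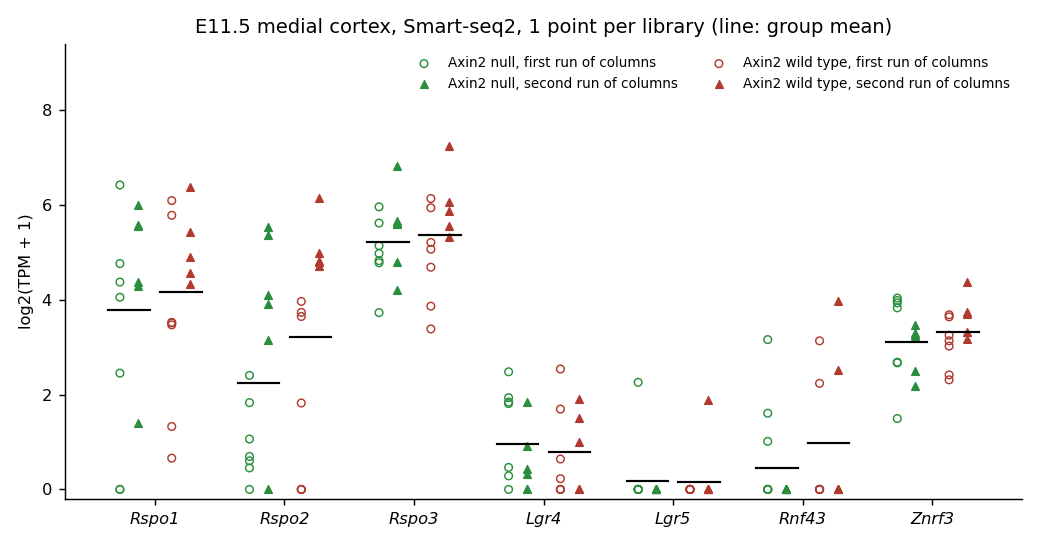
Levels of the 7 genes in E11.5 medial cortex as log2(TPM + 1), with 1 point per Smart-seq2 library, a line at each group mean, green for Axin2 null and red for Axin2 wild type, and symbols for the first 14 (circles) and last 11 (triangles) columns. The genotypes overlap for each gene, and the Rspo2 triangles sit mostly above the circles.

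The header of the Smart-seq2 table lists its columns in an order that restarts, with 14 columns (7 null, 7 wild type) followed by 11 (6 null, 5 wild type). The labels do not say that this order marks a batch. Rspo2 followed it. Over the first 14 columns Rspo2 had a lowest, median and highest of 0, 0.855 and 14.6 TPM, and over the last 11 of 0, 26.9 and 70.4 TPM. Within wild type, the last 5 libraries (25.1 to 70.4 TPM) all exceeded the first 7 (0 to 14.6 TPM), and within null the last 6 (0 to 45.7 TPM) overlapped the first 7 (0 to 4.30 TPM).

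The shift in Rspo2 between the runs of columns, last minus first in mean log2(TPM + 1), was 2.88. It was 1.49 for Rspo1 and 0.76 for Rspo3, and it lay between -0.27 and 0.14 for the receptors and ligases. Rspo1 and Rspo2 were thus among the 8.68% of genes higher by 1 or more in the last columns, while 2.73% were lower. The sum of the 5 cortical hem genes moved the same way, with a median of 24.4 TPM in the first and 57.0 TPM in the last columns. Of the 5, Wnt8b had the highest means (21.9 and 38.8 TPM), and Wnt3a did not rise (4.75 and 4.12 TPM). The cortical gene Emx2 also moved the same way, with means of 26.1 and 62.2 TPM. Median genes detected above 0 per library were 11401.5 and 11856. The part of the hem cells or of library handling in the Rspo2 shift was not tested.

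Read within the runs of columns, the Rspo2 difference between genotypes was -0.88 in the first and -1.41 in the last columns, and the Rspo1 difference was -0.33 and -0.59. For the other 4 members above 1 TPM on average the sign differed between the runs. Rspo3 gave 0.11 and -0.56, Znrf3 0.17 and -0.68, Rnf43 0.06 and -1.30, and Lgr4 0.53 and -0.29. Leaving out the 3 libraries labelled null with Axin2 above the wild-type mean gave -1.32 for Rspo2 and -0.67 for Rspo1, with -0.31 for Znrf3, -0.57 for Rnf43, -0.20 for Rspo3 and 0.14 for Lgr4.

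Per-library combinations of the module were counted at 1 TPM or more. The red cell gene Hbb-y, the choroid plexus gene Ttr and the mesenchyme gene Col3a1 each reached 1 TPM in all 25 libraries. A combination within a library is therefore not read as expression in 1 cell. All 3 ligands were found in 15 of 25 libraries, 2 of them in 9 and 1 in 1, and no library lacked every ligand. Rspo3 was the most abundant ligand in 16 libraries, Rspo1 in 9 and Rspo2 in none. An Lgr receptor (Lgr4, Lgr5 or Lgr6) was found in 13 libraries, 8 null and 5 wild type. All 25 libraries held a ligand and a ligase, so these 13 necessarily did as well. Both ligases were found in 7 libraries, and Lgr4 together with Rnf43 in 2.

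TPM is per length, so the cortical levels can be ordered. Over all 25 libraries the order was Rspo3 (46.0 ± 31.2 TPM), Rspo1 (27.9 ± 26.0), Rspo2 (14.2 ± 17.9), Znrf3 (9.23 ± 4.35), Rnf43 (1.68 ± 3.60), Lgr4 (1.22 ± 1.49) and Lgr5 (0.260 ± 0.914), as mean ± SD over libraries. Each neighbouring pair overlapped between libraries. The order was not the same in every subset. Rspo2 was below Znrf3 by mean in the first 14 columns (3.61 against 8.97 TPM) and above it in the last 11 (27.7 against 9.55 TPM), and by the median of all 25 libraries it was below (7.95 against 8.54 TPM). In libraries labelled null, Lgr4 (mean 1.32 TPM) was above Rnf43 (0.848 TPM). Rspo3 led here as in dorsal diencephalon, Lgr4 stood near the bottom where it led in ventral diencephalon, and the 2 tables were normalized separately, so no level is compared between them.

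The cortical libraries held markers of their labelled tissue and of other cells. The pallial list summed to 253 to 551 TPM in null and 293 to 642 TPM in wild type, and the 6 neural progenitor genes to 402 to 816 and 514 to 951 TPM. Genes of mesenchyme, a known R-spondin source in other organs, summed to 18.2 to 198 and 42.4 to 261 TPM, and choroid plexus genes to 60.3 to 1039 and 21.6 to 815 TPM. In the same order, embryonic red cell genes summed to 573.5 to 19280 and 251.3 to 15310 TPM. Endothelial genes summed to 0.63 to 43.1 and 1.71 to 63.7 TPM, and macrophage genes to 0 to 22.6 and 0 to 146 TPM. The intestinal stem genes Olfm4, Ascl2, Smoc2 and Cdx2 were listed at 0 in all 25 libraries, and so were the hypothalamic genes Nkx2-1, Nr5a1 and Otp. The part of mesenchymal, choroid plexus, red cell, endothelial or macrophage transcripts in the ligand levels was not tested.

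The genes most like each member over the 25 libraries, by Pearson's r of log2(TPM + 1) among genes averaging 10 TPM or more, share libraries and depth with it and are given as a description. Among the genes most like Rspo2 were Emx2 (r = 0.778) and Mest (0.755). Rspo3 was most like Id3 (0.763), Zmym5 (0.719) and Med8 (0.716). Znrf3 was most like Stat3 (0.751), Clta (0.748) and Tagln3 (0.740), and Rspo1 most like Exosc6 (0.696), Yars2 (0.685) and Arl2bp (0.681). Too few libraries held Lgr4, Lgr5 or Rnf43 for such a list.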

How the data were processed

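The tools named in the submitters' processing notes are Trimmomatic, STAR (version 2.7.0a) and featureCounts, with builds GRCm38 and mm10 and no roles given. The bulk table is named as TPM, but the authors deposited values that sum to a different total in each library and are not all whole, so they were read as estimated counts. The deposited Smart-seq2 values are TPM, since each column sums to 1000000, and their depth is unknown. Smart-seq2 columns name a genotype but not a numbered sample.

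The estimated counts were rounded and tested with edgeR 4.0.16 (TMM, quasi-likelihood test, mean of at least 1 CPM, Benjamini-Hochberg adjustment over 14701 genes, threshold 0.05) in R 4.3.3. DESeq2 1.42.0, RLE scaling, no low-count filter, a replicate block and leaving out each library were alternatives. For TPM a pseudocount of 1 was used, with 0.1 and 10 as alternatives. RPKM was computed with GENCODE M21 exon lengths.

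The members and gene lists were chosen with earlier results of these data known. Named were all members, Rspo4, Lgr6, Axin2, up to 3 called genes per direction of each pathway list (the 2 with the highest means where none was called), marker genes that a summed level needs, and the 3 genes most like a member, of which some are not reported here. Predicted genes were left out. The values by library of Olfm4 and of the hem genes, those of Emx2, and the Smart-seq2 means of Wnt8b and Wnt3a were chosen after they were seen. So were the named Wnt target genes that were not called, and the detection of Hbb-y, Ttr and Col3a1.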

Additional observations from a re-analysis of the deposited data

How the results depend on the processing

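Among the 6 members tested in the bulk libraries no direction changed under any alternative. Rspo3 and Lgr4 kept their calls in all of them, while Rspo1 and Rspo2 each lost theirs in 4 of the 6 fits that left out 1 library, and Rspo2 also with the replicate block. The number of members higher in dorsal was 3, and leaving out 1 library gave 1 to 3. The number higher in ventral was 1 throughout. Over all genes tested, 1050 were called for dorsal and 1403 for ventral, and leaving out 1 library gave 500 to 1695 and 839 to 1928. The replicate number as a block gave 924 and 1083 calls and 2 members higher in dorsal, with Rspo2 at an adjusted p of 0.0536 (edgeR). Deviations from the region means correlated between same-numbered libraries at 0.099, 0.148 and 0.165. Dorsal library 2 and ventral library 1 correlated best with each other (0.187) rather than with their own numbers, so the numbers were not taken to pair the libraries. Libraries 1 and 2 correlated between the regions at 0.059 to 0.187. Library 3 of a region correlated with libraries 1 and 2 of the other at -0.192 to -0.09. Whether library 3 of both regions shares a batch was not tested. In the Smart-seq2 libraries the number of members with a difference of 1 or more was 0 as reported. It was 1 with a pseudocount of 0.1 (Rspo2, -1.04), 1 by the log2 ratio of mean TPM (Rnf43, -1.60), 2 in the last 11 columns (Rspo2 and Rnf43), and 1 without the 3 libraries labelled null with high Axin2 (Rspo2). The last 2 settings were chosen after seeing the data. No paired analysis was possible for the Smart-seq2 libraries because their columns carry no sample number. Low counts limit Rspo1, Rspo2 and Rnf43 in ventral diencephalon, where 19, 12 and 11 counts were found.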
